A study of Mus musculus with 2 samples.

Results

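The 6 genes described here encode the lipid-digesting secretions of the pancreas: Pnlip, Pnliprp1, Pnliprp2, Cel, Clps and Pla2g1b. They were listed by name and function, and all 6 were found among the 14789 gene symbols of the count table. The cells came from the pancreas of adult Tff2CreERT2; R26-tdTomato mice given tamoxifen, in which a recombinase under the Tff2 promoter turns on tdTomato from the Rosa26 locus, so that labelled cells are those with Tff2 promoter activity at induction and their descendants. Both samples, 2 biological replicates of 1 group, carried these alleles and this treatment, and there was no unlabelled or untreated control. Single cells positive for EpCAM and the reporter and negative for CD45 and TER119 were sorted and sequenced with 10x Genomics chemistry. The table does not tie cells to the replicates, so every value is a description of 1 pooled sample and has no test.

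Pancreatic fat digestion needs several acinar products at once. Pancreatic triglyceride lipase, encoded by Pnlip, cuts dietary triglycerides at the surface of fat droplets, where bile salts would displace it without its small cofactor colipase, encoded by Clps. Pnliprp1 and Pnliprp2 encode relatives of this lipase, of which the first has little known activity on triglycerides and the second also cuts galactolipids and phospholipids. Cel encodes carboxyl ester lipase, a bile salt-activated enzyme that cuts cholesterol esters, retinyl esters and other lipids. Pla2g1b encodes the pancreatic phospholipase A2, which is secreted as a proenzyme and frees fatty acids from phospholipids.

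The genes lie at 4 places in the GRCm38 build (GENCODE M21). Pnlip (ENSMUSG00000046008.8, chromosome 19, 58652498 to 58681788), Pnliprp1 (ENSMUSG00000042179.6, 58728887 to 58744169) and Pnliprp2 (ENSMUSG00000025091.4, 58759719 to 58777534) are neighbours on the plus strand of chromosome 19. Cel (ENSMUSG00000026818.5) is on the minus strand of chromosome 2 (28555795 to 28563403), Clps (ENSMUSG00000024225.5) on the minus strand of chromosome 17 (28558149 to 28560766), and Pla2g1b (ENSMUSG00000029522.12) on the plus strand of chromosome 5 (115466262 to 115474722). The longest open reading frames of Pnlip and Pnliprp1 were identical at 70.2% of aligned bases, those of Pnlip and Pnliprp2 at 70.1% and those of Pnliprp1 and Pnliprp2 at 67.6%. The longest run of bases shared by any pair of these 3 transcripts was 23 bases, which bears on whether reads could be assigned to the wrong relative. That run lies in the coding part of Pnlip and Pnliprp1.
Run shared by Pnlip and Pnliprp1: tgacatgtgcaagaacatgttcc

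The promoters of Cel, Pnlip and Pnliprp1 are printed because these are 3 of the 4 genes that varied together across acinar cells in the results that follow. They are from RefSeq (GRCm38.p6) and run from 250 bases before to 50 bases after the start of transcription, 5′ to 3′ on the gene's strand. They span chr2:28563354-28563653 on the minus strand, chr19:58670115-58670414 on the plus strand and chr19:58728637-58728936 on the plus strand. The Pnlip window lies within the GENCODE span of the gene given above and not directly before its first base. Capitals mark matches to 4 motifs. The first was the E-box of the acinar PTF1 complex, searched as CACCTG with its complement CAGGTG and as the palindrome CAGCTG. The second was the other box of that complex, TGGGAA with its complement TTCCCA. The third was the motif of the nuclear receptor Nr5a2, AAGGTCA with its complement TGACCTT. The fourth was a TATA box, TATAAA, on the gene's strand only. No matches overlapped in the printed windows.
Cel: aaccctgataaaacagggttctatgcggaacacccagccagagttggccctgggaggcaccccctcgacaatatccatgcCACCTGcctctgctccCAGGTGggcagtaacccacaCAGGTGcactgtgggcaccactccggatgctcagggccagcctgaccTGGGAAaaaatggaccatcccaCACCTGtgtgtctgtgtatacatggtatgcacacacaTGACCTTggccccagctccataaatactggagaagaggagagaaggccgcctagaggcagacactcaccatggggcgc
Pnlip: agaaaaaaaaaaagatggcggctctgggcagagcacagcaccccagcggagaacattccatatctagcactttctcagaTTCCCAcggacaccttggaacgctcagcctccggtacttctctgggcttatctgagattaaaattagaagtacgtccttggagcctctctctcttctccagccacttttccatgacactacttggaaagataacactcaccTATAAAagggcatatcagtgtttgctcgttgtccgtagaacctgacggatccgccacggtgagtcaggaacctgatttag
Pnliprp1: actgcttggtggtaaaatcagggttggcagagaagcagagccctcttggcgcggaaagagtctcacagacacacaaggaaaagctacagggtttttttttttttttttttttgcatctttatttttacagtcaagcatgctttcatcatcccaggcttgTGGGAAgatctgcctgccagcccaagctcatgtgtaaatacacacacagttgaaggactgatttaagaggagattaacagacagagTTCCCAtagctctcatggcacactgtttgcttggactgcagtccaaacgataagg

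The Cel promoter held 4 E-box matches, 1 match to the second box and 1 to the Nr5a2 motif. Pnlip held 1 match to the second box and a TATA box whose first base stood at -30, and Pnliprp1 held 2 matches to the second box. Of all 32851 promoters of this length, 32.9% held an E-box match, 25.6% a second box, 8.64% both, 4.72% an Nr5a2 motif and 8.32% the TATA letters. No promoter of Clps was among those searched. The Pnliprp2 promoter held 1 E-box match. That of Pla2g1b held none of the motifs, but its RefSeq start was not found in the GENCODE transcripts of the gene. These matches are letters only and not evidence of binding.

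Cells were called acinar, the cells that make digestive enzymes, where 8 protease genes (Ctrb1, Try4, Cela1, Prss2, Cela3b, Cpb1, Cela2a and Cpa1) gave at least 10% of their unique molecular identifiers (UMIs), the tags that count single captured molecules. By this rule 274 of 728 cells (37.6%) were acinar and 454 were other cells. The threshold fell in a sparse range: 5 cells lay between 10% and 20%, 8 between 5% and 10%, while 254 cells were at 30% or more and 400 below 2%. The acinar cells held 1178505 UMIs (median 2127.5 per cell, range 1004 to 53222) and the other cells 1174503 (median 2079). Barcodes ended in 1 (228 acinar cells) or in 2 (46 acinar cells), and which replicate an ending stands for is not given. Of the barcode sequences, 7 occurred under both endings, all in acinar cells, with 1034 to 2138 UMIs under ending 1 and 6103 to 10606 under ending 2. Of the markers used in the sort, Epcam had a UMI in 13 acinar and 38 other cells, and Ptprc, which encodes CD45, in 2 acinar and 75 other cells. The row named RFP had a UMI in 2 acinar and 0 other cells. In the acinar cells, 18 of 72 measured markers of 8 other cell types had 0 UMIs, among them Cftr, Ms4a1, Trac, Nkg7, Csf1r and Lum. Their lists summed to 935 UMIs for 13 ductal markers, 381 for erythroid, 209 for endothelial and 75 for endocrine markers, and to between 11 and 29 for each of the other 4.

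The 6 genes together gave 13.9% of the UMIs of the acinar cells, and between 1.98% and 36.0% in single cells, with a median of 12.1%. Colipase took most of them. UMIs were not divided by transcript length, so the order given is that of captured molecules. Clps had 98513 UMIs, which is 83591 per 1000000 UMIs (CPM; exact 95% Poisson interval 83070 to 84115, counting error only). Pnlip had 29167 CPM (28859 to 29477) and Pnliprp1 11067 (10878 to 11259). Pla2g1b stood at 6684 CPM (6537 to 6833) and Cel at 6389 (6246 to 6535), but their order was not the same under both barcode endings, with Cel above Pla2g1b under ending 1 (6745 against 6217 CPM) and below it under ending 2 (3576 against 10373 CPM). Pnliprp2 was lowest at 2381 CPM (2294 to 2471). In the acinar cells at least 1 UMI of Clps, Pnlip and Pnliprp1 was found in 274 of 274 cells, of Cel in 272, of Pla2g1b in 271 and of Pnliprp2 in 265. All 6 were found together in 95.3% of the acinar cells, and in 81.3% when each cell was thinned to 1000 UMIs.

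**Figure D1:**
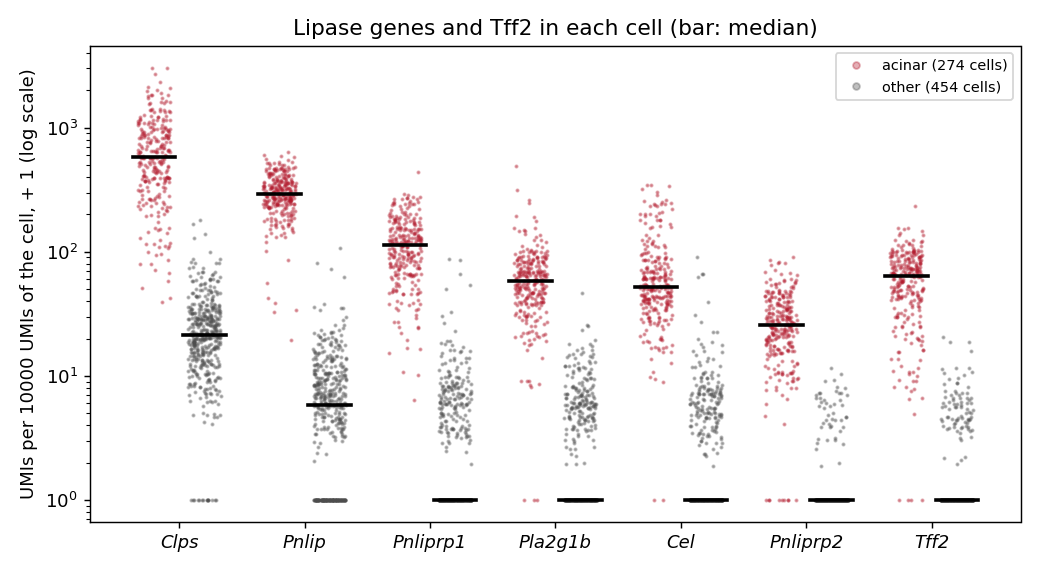
UMIs of each lipase gene and of Tff2 per 10000 UMIs of the cell, plus 1, on a log axis, with 1 point per cell and a bar at the median. The median of the 274 acinar cells (red) is above that of the 454 other cells (grey) for each gene, although single cells overlap, and Clps runs from 38.4 to 3045 per 10000 among the acinar cells.

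Colipase varied far more between acinar cells than its lipase did. On the scale of UMIs per 10000 UMIs of the cell, Clps ran from 38.4 through a median of 575 to 3045, and its 95th percentile was 15.6 times its 5th. Pnlip ran from 18.6 through 293 to 637, with a 3.55-fold span between the same percentiles. The lipase thus spread less between cells than its cofactor.

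Pnliprp1 ran from 5.45 through 113 to 435 (8.40-fold between the 5th and 95th percentiles). Pnliprp2 ran from 0 through 24.8 to 90.3 (8.94-fold). Cel ran from 0 through 51.1 to 346 (14.7-fold), with a long upper tail, and Pla2g1b from 0 through 57.4 to 493 (7.41-fold). At an equal depth of 1000 UMIs per cell, the variance of Clps counts was 37.9 times the mean, where counting error alone gives a ratio near 1. Among 63 genes with a mean of at least 1 UMI at that depth (median ratio 3.53), only the nuclear RNA Malat1 had a higher ratio (66.1). The ratio was 6.27 for Cel, 4.59 for Pnlip, 4.42 for Pnliprp1, 4.01 for Pla2g1b and 1.51 for Pnliprp2. At an equal relative spread this ratio rises with the mean, so it does not rank genes by relative spread. The means were 70.0 UMIs for Clps, 30.1 for Pnlip, 12 for Pnliprp1, 7.23 for Cel, 6.54 for Pla2g1b and 2.68 for Pnliprp2.

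The number of colipase UMIs per lipase UMI in a cell therefore covered a wide range. Over 274 acinar cells, Clps per Pnlip had a median of 1.91 and quartiles of 1.12 and 3.58, and in 57 cells Pnlip outnumbered Clps. Between the 5th and 95th percentiles this ratio changed 31.8-fold, against 6.38-fold for Pnlip per Pnliprp1 and 6.76-fold for Pnlip per Pnliprp2 (265 cells with a Pnliprp2 UMI). Clps per Pla2g1b changed 8.85-fold (271 cells). Clps per Cel changed most, 135-fold, with a median of 12 in 272 cells, and in 22 cells Cel outnumbered Clps. Those 22 cells all carried ending 1 and had a median of 1355.5 UMIs, against 2265 in the other acinar cells. Counting error in genes with few UMIs in a cell adds to these spans, and its part was not tested.

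The 2 barcode endings differed in these genes, although cells cannot be assigned to replicates by them. The median acinar cell under ending 2 held 961 Clps UMIs per 10000 (lowest 201, highest 2710), against 524 under ending 1 (38.4 to 3045). For Pla2g1b the medians were 82.5 and 53.0, and for Cel the order turned, with 32.7 under ending 2 (7.89 to 94.8) and 58.8 under ending 1 (0 to 346). Pnlip (277 and 303), Pnliprp1 (119 and 108) and Pnliprp2 (19.2 and 25.9) differed less. The ranges of the endings overlapped for each of the 6 genes.

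Across acinar cells the 6 genes fell into 2 sets that ran against each other. Spearman correlations of shares of UMIs over 274 cells are given as a description, since cells of 1 sample share a library and shares of 1 total are tied to each other. Pnlip, Pnliprp1, Pnliprp2 and Cel correlated positively in all 6 of their pairs, from 0.30 (Pnliprp2 with Cel) to 0.44 (Pnlip with Pnliprp1). Clps and Pla2g1b correlated at 0.58. Each of the 8 pairs between the sets was negative, from -0.11 (Pnlip with Pla2g1b) to -0.50 (Cel with Clps).

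Expressed over the UMIs left after removing the 8 protease genes and the 6 members, the positive pairs became stronger, with 0.62 for Pnlip and Pnliprp1 and 0.61 for Clps and Pla2g1b. The negative pairs of Clps shrank to -0.33 with Cel, -0.33 with Pnliprp2, -0.22 with Pnliprp1 and -0.10 with Pnlip. Those of Pla2g1b moved to between -0.08 (Pnliprp2) and 0.16 (Pnlip). The 4 pairs of Clps were thus the most negative with this total, and their size depended on the total. Both genes of a pair are divided by this same smaller total, so its own variation between cells enters each rho. Its part in these changes was not tested. Within ending 1 alone (228 cells) the pair Clps and Cel stood at -0.44, and within ending 2 alone (46 cells) at -0.51. Clps and Pla2g1b stood at 0.56 and 0.46 within the endings. The positive block held in all 6 pairs within ending 1 but not within ending 2, where Pnliprp2 stood at -0.03 with Cel and 0.12 with Pnlip.

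**Figure D2:**
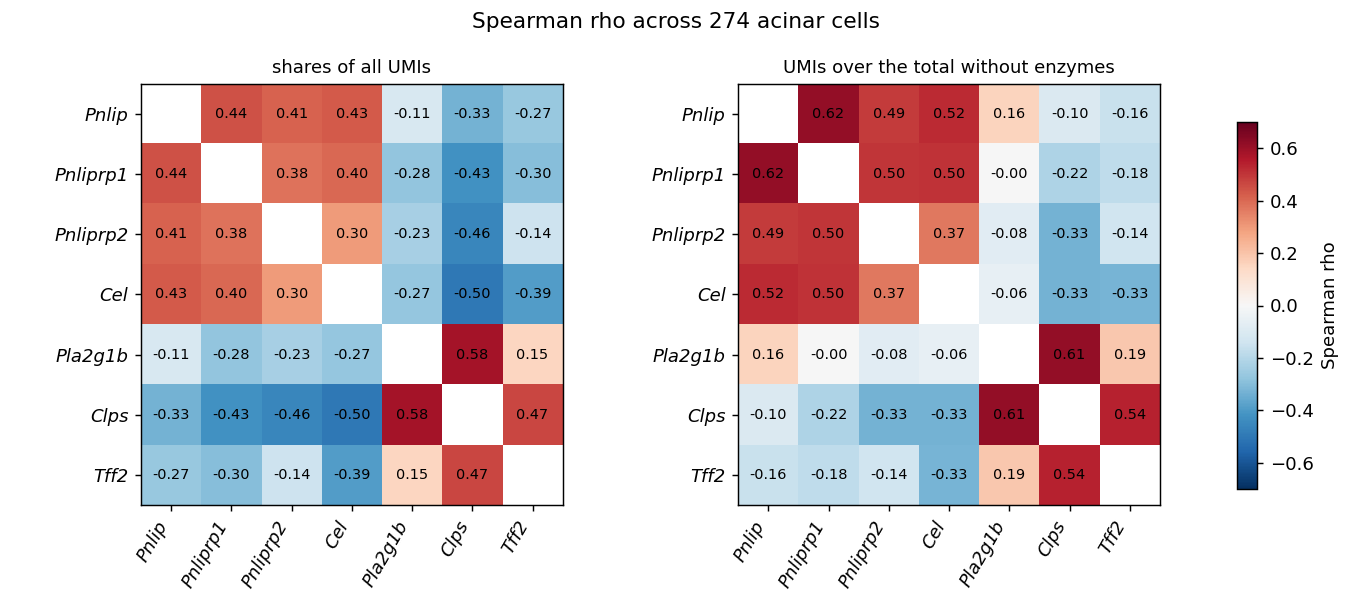
Spearman rho for each pair of lipase genes and Tff2 across 274 acinar cells, from shares of all UMIs (left) and from UMIs over the total without the 8 protease genes and the 6 members (right). The 4 lipase genes form a positive block and Clps pairs with Pla2g1b and Tff2, with Clps and Cel at -0.50 on the left and -0.33 on the right.

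For each member, the genes with the most similar pattern were taken from 77 genes seen in at least 50% of acinar cells. Cel was like the carboxypeptidase Cpa1 (rho 0.54) and the chymotrypsin-like protease Ctrl (0.43), and least like Clps (-0.50), Tff2 (-0.39) and the predicted gene Gm10076 (-0.35). Pnlip was most like Cpa1 (0.50), Pnliprp1 (0.44) and Cel (0.43). Pnliprp1 was like Ctrl (0.58) and Pnlip (0.44), and Pnliprp2 like Pnlip (0.41) and Pnliprp1 (0.38).

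Clps was most like Gm10076 (0.59), Pla2g1b (0.58) and another predicted gene, Gm10073 (0.52), and least like Cel, Cpa1 (-0.49) and Pnliprp2 (-0.46). Pla2g1b was most like Clps, the trypsinogen Try4 (0.38) and Gm10073 (0.35). The median rho over the 77 genes was 0.06 for Clps and -0.08 for Cel. With the total UMIs of the cell, Clps had a rho of 0.33, Pla2g1b of 0.13 and Cel of -0.08. With each cell thinned to 1000 UMIs, the rho of Clps with Cel was -0.48.

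The acinar cells were ordered by Cel share and divided into 3 near-equal sets, and colipase was lowest in the set richest in Cel. In the 92 cells lowest in Cel, Clps had a lowest, median and highest value of 56.7, 836 and 3045 UMIs per 10000. In the middle 91 cells these were 79.0, 652 and 1971, and in the 91 highest in Cel 38.4, 311 and 1814. The sets overlapped, and the median cell of the top set held 0.372 times the Clps of the median cell of the bottom set. Summed over cells, in which the deepest cells weigh most, the ratio was 0.763 (0.750 to 0.776), and it was 0.466 with each cell thinned to 1000 UMIs, 0.5001 without ending 1 and 0.960 with cells reordered on the total without enzymes.

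Pla2g1b was lower where Clps was lower, with medians of 66.8, 59.3 and 45.4 per 10000. The triglyceride lipase and its relatives went the other way. Pnlip had medians of 260, 293 and 366, Pnliprp1 of 80.7, 109 and 133, and Pnliprp2 of 21.1, 22.8 and 32.3. Summed, the top set held 1.37 times the Pnlip of the bottom set (1.33 to 1.41), 1.49 times the Pnliprp1 (1.42 to 1.56) and 1.31 times the Pnliprp2 (1.19 to 1.45). None of the members other than Cel itself, which ordered the cells, passed 2-fold either way in the sums. Of 416 genes with at least 50 UMIs, 6.25% did (5 higher, Cel among them, and 21 lower). Clps did pass 2-fold in the median cell (0.372 times) and in sums of thinned cells (0.466 times).

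The 27 acinar cells richest in Cel, the top of 10 near-equal sets, were low in colipase. They held a median of 237 Cel UMIs per 10000 (179 to 346). Their Clps median was 141 (38.4 to 461), so that each of them lay below the median acinar cell (575). Their medians were 464 for Pnlip, 189 for Pnliprp1 and 47.5 for Pnliprp2, against 293, 113 and 24.8 over all acinar cells. Tff2 stood at 14.6 against 62.7. Without these cells, a comparison chosen after seeing the data, the rho of Clps with Cel was -0.35 and the median-cell ratio between top and bottom sets 0.570. Leaving out cells by their Cel share also narrows the range of Cel, so how much of the relation lay in them was not tested.

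RNA content differed in the cells richest in Cel. In the 27 cells, a median of 100 genes was seen at 1000 UMIs, ribosomal protein transcripts made up 1.86% of UMIs, and the 8 proteases 54.9%. The 28 cells lowest in Cel stood at 183 genes, 9.02% and 40.3%. Counted from the lowest in Cel, set 9 of the 10 stood at 168 genes, 5.63% and 45.3%. Set 8 stood at 190 genes, 8.53% and 40.7%, so the values did not change steadily along the Cel order. All 27 cells richest in Cel carried ending 1. In the lowest of the 3 sets, 30 of 92 cells carried ending 2. In the middle set 12 of 91 did, and in the top set 4 of 91. Markers of 8 other cell types summed to 0% to 10.1% of a cell's UMIs in the bottom set (median 0.103%), 0% to 1.15% in the middle (median 0.110%) and 0% to 0.603% in the top set (median 0.0899%). The part of RNA content and of other cells' RNA in the result was not tested. Within each ending the correlation was as given above.

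**Figure D3:**
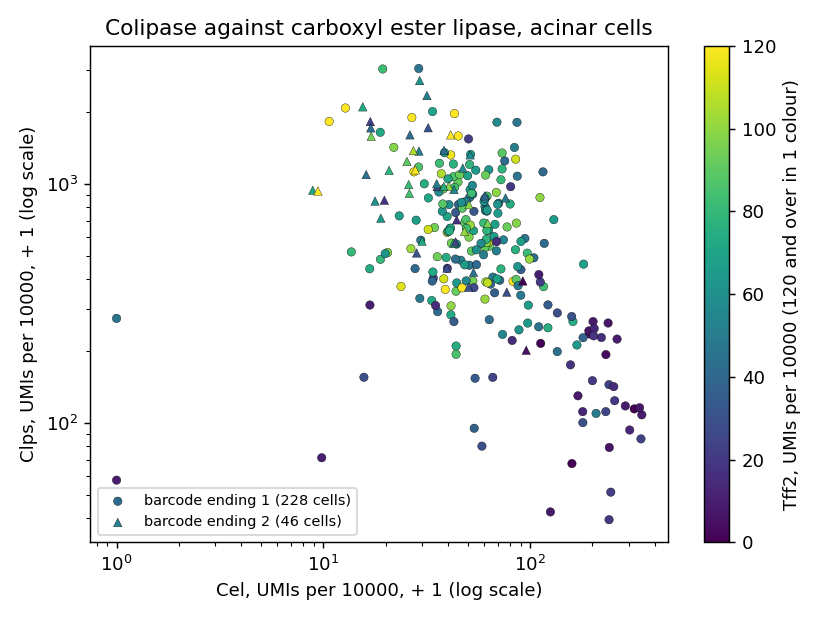
Clps against Cel in 274 acinar cells, each as UMIs per 10000 of the cell plus 1 on log axes. Circles carry barcode ending 1 and triangles ending 2, and colour gives Tff2. The 27 cells with at least 179 Cel UMIs per 10000 lie at 38.4 to 461 Clps UMIs and have a median of 14.6 Tff2 UMIs.

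Tff2, a secreted trefoil peptide whose promoter drove the recombinase (chromosome 17, 31141049 to 31144282, minus strand), followed colipase. Its rho with Clps was 0.47 over 274 acinar cells, the highest of 77 genes, and 0.53 and 0.27 within endings 1 and 2. It was 0.15 with Pla2g1b, -0.14 with Pnliprp2, -0.27 with Pnlip, -0.30 with Pnliprp1 and -0.39 with Cel. Only 1 of the 77 genes stood lower against Tff2 than Cel. With the other total these became 0.54 for Clps, 0.19 for Pla2g1b and -0.33 for Cel. Without the 27 cells richest in Cel they were 0.31 for Clps and -0.21 for Cel, -0.07 for Pnlip, -0.16 for Pnliprp1 and 0.02 for Pnliprp2. That of Pla2g1b was -0.09 within ending 2, so neither Pnliprp2 nor Pla2g1b had the same direction against Tff2 in every set of cells.

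In 3 near-equal sets by Tff2 share, the cells lowest in Tff2 held the least colipase. Clps had a lowest, median and highest value of 38.4, 283 and 1825 UMIs per 10000 in the 92 lowest cells, 109, 719 and 3045 in the middle 91 and 193, 686 and 3030 in the top 91. The step lay between the bottom set and the rest, and the middle and top sets differed little. Cel had medians of 77.8, 49.8 and 43.9, Pnlip of 337, 295 and 273, and Pla2g1b of 49.1, 58.9 and 62.6. Summed, the top set held 1.53 times the Clps of the bottom set (1.4998 to 1.56; 2.42 times in the median cell) and 0.515 times the Cel (0.485 to 0.547). No member passed 2-fold in these sums, against 6.76% of 414 genes, Tff2 itself among them.

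The lowest set by Tff2 also had fewer UMIs (median 1492.5 per cell against 2759 and 2710), fewer genes at 1000 UMIs (142.5 against 197 and 202) and more mitochondrial transcripts (1.98% against 0.864% and 1.02%). The part of depth and RNA quality in the relation to Tff2 was not tested. With all cells thinned to 1000 UMIs, the rho of Clps with Tff2 was 0.43.

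**Figure D4:**
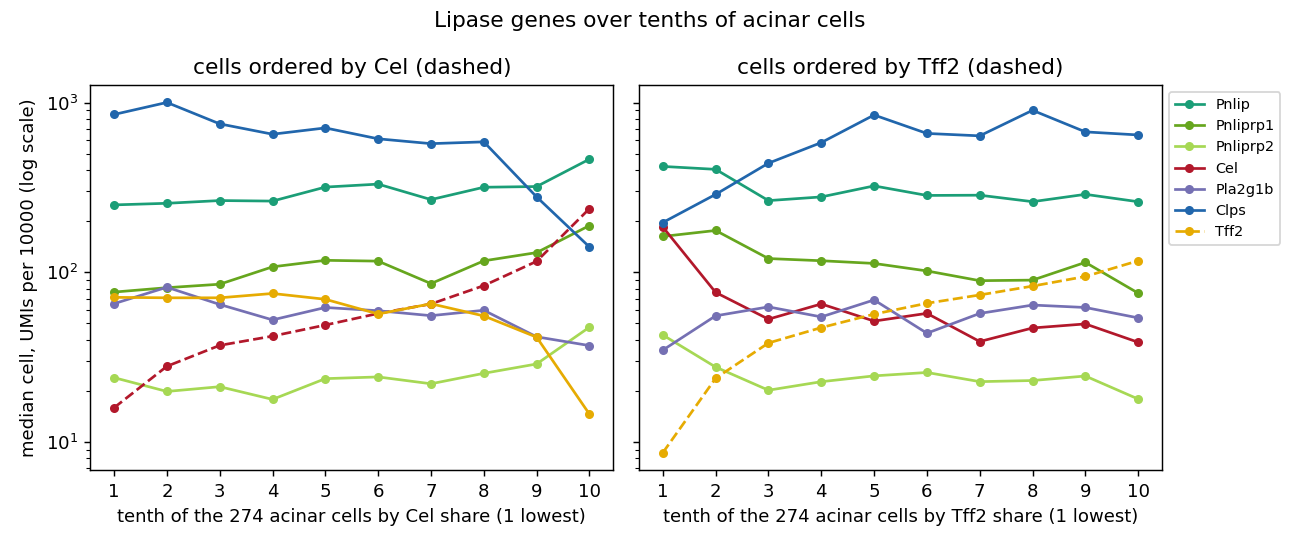
Median UMIs per 10000 of each lipase gene and Tff2 over 10 near-equal sets of the 274 acinar cells, ordered by Cel (left) or by Tff2 (right), on a log axis, with the ordering gene dashed. Clps is at 141 in the set highest in Cel, where Tff2 is at 14.6, and the set lowest in Tff2 has the highest Cel median, 185.

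In the other 454 cells, all 6 genes were seen at low level. Clps had 2553 UMIs (2174 CPM, 2090 to 2260), Pnlip 685 (583 CPM, 540 to 629), Pnliprp1 335 (285 CPM), Cel 283 (241 CPM), Pla2g1b 281 (239 CPM) and Pnliprp2 52 (44.3 CPM). The acinar level was 38.5 times that of the other cells for Clps (37.0 to 40.0), 50.01 times for Pnlip (46.4 to 54.0), 53.8 times for Pnliprp2 (40.9 to 72.2) and 38.8 times for Pnliprp1 (34.8 to 43.4). It was 27.9 times for Pla2g1b (24.8 to 31.6) and 26.5 times for Cel (23.5 to 29.96). All 6 passed 2-fold, as did the 8 protease genes that defined the cells, while 3.82% of 3615 genes with at least 50 UMIs did, and the median gene had a log2 ratio of -2.57. With the other total, all log2 ratios rose by 1.16, and the count of higher and lower genes moved from 138 and 3085 to 273 and 2196.

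Colipase UMIs reached nearly every other cell. At least 1 Clps UMI was seen in 439 of 454 cells (96.7%), and in 84.8% at 1000 UMIs per cell. The shares were 70.5% for Pnlip (45.6% thinned), 41.9% for Pla2g1b (20.9%), 41.6% for Pnliprp1 (23.3%), 38.3% for Cel (18.1%) and 10.6% for Pnliprp2 (4.19%). These cells also held UMIs of the 8 proteases at 1.10% of their total, and the members' proportion to these 8 genes is given next. The source of the members' UMIs in the other cells was not tested.

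Per 1000 UMIs of the 8 protease genes, Clps stood at 198 in the other cells (190 to 206) and at 199 in the acinar cells (197 to 200), and Pnliprp1 at 26.0 (23.2 to 28.9) and 26.3. Pnlip was lower in the other cells, at 53.1 (49.1 to 57.3) against 69.3 (68.5 to 70.0), as was Pnliprp2 at 4.03 (3.01 to 5.29) against 5.65. Cel was higher, at 21.9 (19.4 to 24.7) against 15.2 (14.8 to 15.5), and so was Pla2g1b, at 21.8 (19.3 to 24.5) against 15.9. Tff2 stood at 8.22 (6.72 to 9.95) against 15.7. In these pooled sums Clps stood in the same proportion to the proteases in both sets of cells within counting error, as did Pnliprp1 with all 454 cells counted. The deepest cells weigh most in a sum, and the median acinar cell held 140 Clps UMIs per 1000 (quartiles 81.9 and 217). Under ending 1 Clps stood at 199 in other cells (190 to 208) and 194 in acinar cells. Under ending 2 it stood at 185 (156 to 218) in 15 other cells and 234 (229 to 238) in acinar cells. For Cel and Pla2g1b the direction was not the same under both endings. Under ending 1, Cel stood at 23.2 in other and 16.2 in acinar cells, and Pla2g1b at 22.0 and 14.9. Under ending 2, Cel stood at 5.47 (1.77 to 12.8) and 7.89, and Pla2g1b at 18.6 (10.8 to 29.9) and 22.9.

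The 8 cells just under the acinar threshold held 78.2 Cel UMIs per 1000 protease UMIs (58.0 to 103) and 79.6 Pnliprp1 UMIs (59.2 to 105). Without them the other cells stood at 18.8 for Cel (16.4 to 21.4) and 23.0 for Pnliprp1 (20.4 to 25.9), an interval that no longer held the acinar value of 26.3, while Clps stood at 201 (193 to 210). The other cells were also divided by the marker list that gave most UMIs in each cell, which is a range of counts and not a cell type. Clps per 1000 protease UMIs was 218 in 166 cells led by endothelial markers (204 to 233), 158 in 103 led by B or plasma markers (141 to 176), 181 in 77 led by T or NK markers (161 to 203) and 225 in 39 led by ductal markers (200 to 251). For Cel the same sets gave 22.9 (18.7 to 27.6), 15.1 (10.5 to 20.9), 20.0 (14.1 to 27.5) and 29.8 (22.0 to 39.4). The smallest sets, led by macrophage or dendritic, mesenchymal and erythroid markers, had 19 to 22 cells each and wide intervals. No set is read as expressing these genes itself.

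**Figure D5:**
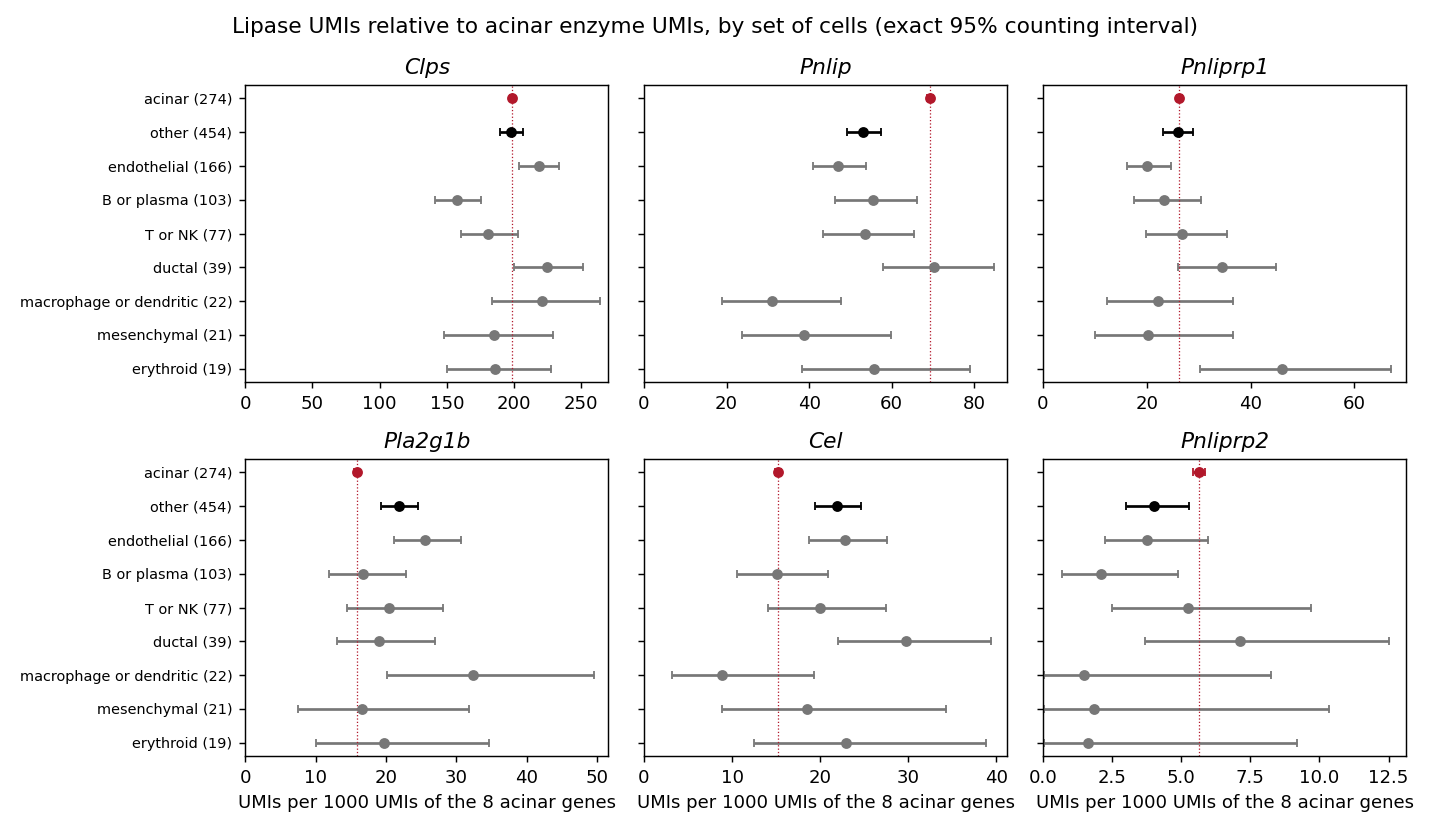
UMIs of each lipase gene per 1000 UMIs of the 8 protease genes, in acinar cells (red), all other cells (black) and the other cells by their leading marker list (grey, number of cells in brackets), with exact 95% counting intervals and a dotted line at the acinar value. Clps is at 199 in acinar and 198 in other cells, while Pnlip is lower (53.1 against 69.3) and Cel higher (21.9 against 15.2) in other cells.

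Other genes of lipid breakdown were mostly at few UMIs in acinar cells. Of 13 listed genes of intracellular lipid hydrolysis and droplets, 12 were measured and 6 had at least 50 UMIs, all 6 at least 2-fold lower in acinar cells with either total. That is also where most genes lay, since 85.3% of 3615 genes were lower by 2-fold, and 60.7% with the other total. Mgll, which encodes monoacylglycerol lipase, stood at 15.3 CPM in acinar and 317 CPM in other cells. G0s2, an inhibitor of adipose triglyceride lipase, stood at 10.2 and 59.6 CPM and Pnpla2, that lipase itself, at 7.64 and 36.6 CPM. Of 6 listed relatives of the pancreatic lipase, 5 were measured and only Lpl, which encodes lipoprotein lipase, had enough UMIs, at 74.7 and 148 CPM (log2 ratio -0.98, short of 2-fold). Of 6 listed carboxylesterases, 3 were measured and only Ces1d passed the floor, with 1 UMI in acinar and 98 in other cells. Of 9 other secreted phospholipases A2, 3 were measured (Pla2g2d, Pla2g5 and Pla2g12a) and 0 passed it, and Pla2g12a had 25 UMIs in acinar and 15 in other cells.

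The other secretory products of acinar cells were higher there too. Of 18 listed enzymes and granule proteins, 17 were measured and 16 had enough UMIs. All 16 were at least 2-fold higher in acinar cells, against 3.82% of 3615 genes. They are secretory products, as are the 8 proteases that defined the acinar cells. Their median log2 ratio was 5.31, against 5.27 for the 6 members and 5.17 for the 8 proteases. Examples with the most UMIs were the trypsinogen Try5 (43.4-fold), the ribonuclease Rnase1 (37.4-fold) and Reg1 (34.4-fold). The 13 of them seen in at least 50% of acinar cells had a median rho of 0.05 with Clps and -0.03 with Cel. The syncollin gene Sycn (0.43) and the granule lectin Zg16 (0.36) were positive with Clps, and Ctrl (-0.37) negative.

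Transcription factors of acinar cells were measured at few UMIs. Of 12 listed, 5 passed the floor. Ptf1a (61 UMIs in acinar and 1 in other cells) and its partner Rbpjl (119 and 31.5 CPM) were at least 2-fold higher and Tcf3 lower. Mecom had 68 UMIs in acinar and 68 in other cells. With the other total 4 of the 5 were higher. Of all 3615 genes over the floor, 3.82% were higher and 85.3% lower by 2-fold, so Tcf3 lay where most genes did. With the other total 273 genes were higher and 60.7% lower. For Xbp1, which regulates the secretory pathway, the levels were 145 and 86.8 CPM. Nr5a2 had 31 and 11 UMIs. Of 6 secretagogue receptors, 5 were measured and 2 passed the floor, both higher: Cckar, the receptor for cholecystokinin, at 138 and 3.41 CPM, and the ATP-gated channel P2rx1 at 124 and 5.11 CPM. None of these was seen in enough acinar cells to be set against the members cell by cell.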

How the data were processed

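The authors deposited 1 table of raw UMI counts per gene and cell, which was used as it stands. The aligner suite was Cell Ranger and the genome mm10, per the submitters' processing notes. For its version, the annotation and the cell filters, the sources used here give nothing. Its 14793 rows held 4 doubled symbols, which were summed. Depth was 2353008 UMIs over 728 cells (1004 to 53222 per cell, median 2085.5), and intervals cover counting error only, since molecules of 1 pooled sample carry no spread between animals. The labels do not say which cells belong to which replicate, so no test was run. Values were computed with Python 3.11.15, numpy 2.4.6, scipy 1.17.1, pandas 2.3.3 and scanpy 1.11.5. Ratios of summed UMIs used a prior of 0.5 counts for log2 values, a floor of 50 UMIs over both sets and a call at 2-fold. Intervals are exact at 95%, Poisson for counts and conditional for ratios. Cells were thinned to 1000 UMIs without replacement. Scrublet called 3 cells (0.412%) doublets, which were kept. Named genes are the 6 members, the 3 genes with the highest rho for each among genes with a UMI in at least 50% of acinar cells (for Clps and Cel also the 3 lowest), leaving out mitochondrial and ribosomal protein genes and 1 gene that is not reported here, and from each list 2 to 4 examples with the most UMIs in acinar cells. Ptf1a, Nr5a2, Tcf3, Sycn and Zg16 were named after their values were seen. The members and lists were chosen with earlier results of these data known, as were the promoter motifs. The ratio and correlation steps were tested on simulated data.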

Additional observations from a re-analysis of the deposited data

How the results depend on the processing

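No paired analysis was possible because there is 1 group and cells carry no replicate label. The shallowest cell held 1004 UMIs, and Pnliprp2 and Tff2 outside acinar cells rest on 52 and 106 UMIs. Of 138 values of the main results under other settings, 92 stayed within their counting interval, within 1.5 times or, for correlations, within 0.1, and 46 moved further, for causes that were not tested. None changed direction except the ratio per 1000 protease UMIs, which crossed 1 in 2 settings. The log2 ratio of the summed members between acinar and other cells (5.29) was 5.35 with the acinar threshold at 5%, 5.05 at 20%, 6.45 with the total without enzymes, 4.73 without ending 1, 5.35 without cells over 10% mitochondrial UMIs and 4.95 after thinning. Their share of acinar UMIs (13.9%) was 13.8% at the 5% threshold, 31.7% over the other total, 15.9% without ending 1, 13.7% without ending 2, 13.8% without barcodes found under both endings, 13.8% without cells above the 99th percentile of UMIs and 12.9% after thinning. Per 1000 protease UMIs, other over acinar cells (0.982) moved to 1.09 at the 20% threshold, 0.810 without ending 1 and 1.06 after thinning. Acinar cells with all 6 members fell from 95.3% to 81.3% after thinning. The count of genes higher in acinar cells (138) was 273 with the other total, 42 without ending 1, 79 after thinning, 277 with a floor of 10 UMIs and 77 with 200.

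The rho of Clps with Cel (-0.50) was -0.33 with the other total and -0.35 without the 27 cells richest in Cel. That of Cel with Tff2 (-0.39) was -0.26 without ending 1 and -0.21 without those cells, and that of Clps with Tff2 (0.47) was 0.27 and 0.31. Among single genes, Pla2g1b with Tff2 turned from 0.15 to -0.0905 without ending 1, and Pnliprp2 with Tff2 from -0.14 to 0.0164 without those cells. The fold of Clps between top and bottom sets by Cel, 0.372 in the median cell, was 0.612 without ending 1 and 0.570 without those cells. In sums it was 0.763, and 0.776 at the 5% threshold, 0.960 with cells reordered on the other total, 0.5001 without ending 1, 0.647 without the deepest cells, 0.466 after thinning and 0.847 without those cells. Genes past 2-fold between those sets (26) numbered 5 without ending 1, 47 without the deepest cells, 43 after thinning, 351 with a floor of 10, 3 with 200 and 16 with 2 sets in place of 3. Those by Tff2 (28) numbered 49 at the 5% threshold, 4 without ending 1, 371 with a floor of 10 and 10 with 200. Leaving out those 27 cells was chosen after seeing the data.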
